A study of Mus musculus with 4 samples.

Results

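Fat-like cells were chosen by their measured transcripts, as segmented cells with 10 or more transcripts in all, at most 1 transcript of the neuronal genes Snap25, Tubb3, Scg2 and Gap43 together, and 3 or more transcripts of Car3 and Pck1 together. There were 864 such cells, 275 in the section AA_NERVE1, 250 in AA_NERVE2 and 339 in AA_NERVE3, of 4488 cells with 10 or more transcripts and 9785 cells in all. The sections were 5 µm slices of vagal ganglia, which hold the cell bodies of vagal sensory neurons, from mice labelled adult, male and C57BL/6. The study's methods name C57BL/6J mice of both sexes for its experiments as a whole and do not give the sex per section. Every mouse had received 50 µl of Alternaria alternata extract at 25 µg/ml into the nose on days 0, 3, 6 and 9, with tissue taken 16 hours after the last dose, so that no untreated section enters any comparison. The labels number the sections but do not say whether they came from separate mice, so that the spread between sections may be technical. The p-values rest on that spread, shared across genes, and on counting error. Transcripts were counted in place with Xenium, an imaging method that decodes probes on a slice and assigns each transcript to an outlined cell, over a panel of 470 genes.

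Fat cells store triglyceride in a droplet and release fatty acids and glycerol when energy is needed. They take up fatty acids through Cd36 and related carriers, and the nuclear receptor Pparg drives their differentiation and their lipid genes. Car3, carbonic anhydrase 3, is a cytosolic protein abundant in fat and muscle, and Pck1, phosphoenolpyruvate carboxykinase, supplies the glycerol backbone for triglyceride in fat. White fat cells also secrete proteins into the blood, whereas brown fat cells are rich in mitochondria, and fat often surrounds peripheral nerves.

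Pck1 chose the members together with Car3, and Cd36 was the most abundant gene that did not, so the bases before the start of both genes are shown. The sequences are those of RefSeq on GRCm38.p6, read 5′ to 3′ on the strand of the gene. The Pck1 stretch lies at chr2:173152823-173153072 on the plus strand, and its capitals mark TTACGTCA, a variant of the cAMP response element that spans the bases 93 to 86 before the start. The Cd36 stretch lies at chr5:17835897-17836146 on the minus strand, and its capitals mark AGGTCA on the other strand, 1 repeat of the element bound by PPAR receptors, at the bases 228 to 223 before the start.
Pck1: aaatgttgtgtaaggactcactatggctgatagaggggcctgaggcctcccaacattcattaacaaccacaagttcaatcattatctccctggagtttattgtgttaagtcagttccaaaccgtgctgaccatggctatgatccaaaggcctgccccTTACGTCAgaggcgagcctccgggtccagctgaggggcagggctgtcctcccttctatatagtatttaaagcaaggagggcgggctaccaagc
Cd36: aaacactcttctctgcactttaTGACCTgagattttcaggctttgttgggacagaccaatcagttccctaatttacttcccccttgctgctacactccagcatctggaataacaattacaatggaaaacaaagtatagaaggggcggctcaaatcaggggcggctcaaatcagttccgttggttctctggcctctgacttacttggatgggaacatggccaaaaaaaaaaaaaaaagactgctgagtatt
The windows searched ran from 250 bases before to 50 after a start, on both strands, and 5 such windows belonged to Pck1, Cd36 and Pparg. None of the 5 held TGACGTCA, the full cAMP response element, which stood in 1.79% of all 32851 windows. None held the full PPAR element, AGGTCA repeated in the same direction after a spacer of 1 base (0.0396% of all windows), or TTGCGCAA, a palindrome bound by C/EBP proteins (0.183%). The shorter TTACGTCA and AGGTCA, the latter contained in the full PPAR element, were searched after the sequences had been read, and stood in 0.499% and 16.3% of all windows.

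Fat-like cells made up 21.4% of the cells with 10 or more transcripts in AA_NERVE1 (95% exact Clopper-Pearson interval 19.2 to 23.7), 19.2% in AA_NERVE2 (17.1 to 21.4) and 17.9% in AA_NERVE3 (16.2 to 19.7), a mean of 19.5% ± 1.77 (SD, n = 3). These intervals cover counting error only. The fat-like cells held 20712 transcripts, with a median of 22 per cell and a range of 10 to 80. The 1859 other non-neuronal cells, which passed the same limits on depth and neuronal genes but had at most 2 transcripts of Car3 and Pck1, had a median of 14. The 1765 cells over the neuron limit had a median of 67. After thinning of every cell to 10 transcripts, 15.2% ± 2.25 (SD, n = 3) of cells met the rule. No cell name occurred in more than one section.

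Car3 and Pck1 were the most abundant transcripts of the fat-like cells, and their values are given as a description, since they chose the cells. Car3 took 28.5%, 29.5% and 25.7% of all transcripts of fat-like cells in the 3 sections, and Pck1 took 10.7%, 11.4% and 10.9%. In other non-neuronal cells the means were 0.374% for Car3 and 0.132% for Pck1. Of all Car3 transcripts in the sections, 93.0% lay in fat-like cells, and of all Pck1 transcripts 94.0%. A single fat-like cell held a median of 6 Car3 transcripts, with a maximum of 31, and a median of 2 Pck1 transcripts, with a maximum of 13. Both genes were detected in 756 of the 864 cells. Of the fat-like cells, 854 had no transcript of the 4 neuronal genes, and of the 1765 cells over the neuron limit only 1 had 3 or more transcripts of Car3 and Pck1.

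**Figure D1:**
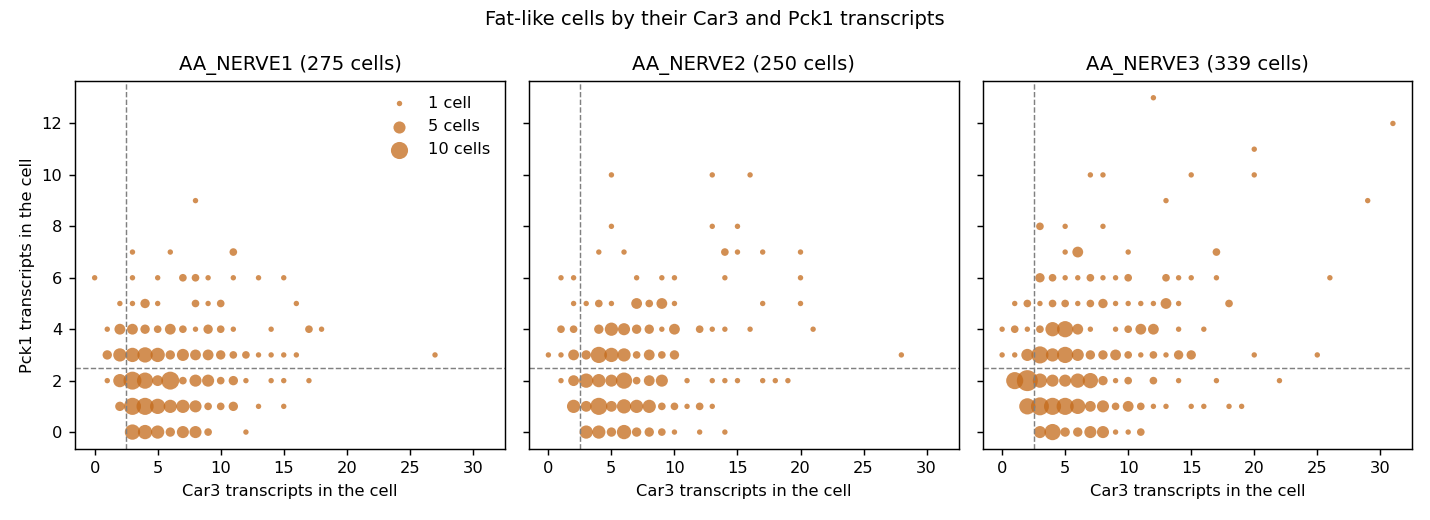
Each point is a combination of Car3 (x axis) and Pck1 (y axis) transcript numbers per fat-like cell, with its area in proportion to the number of cells, in 1 panel per section. Dashed lines mark 3 transcripts, the level called rich, and the cells spread without a gap from Car3 alone to high numbers of both, up to 31 Car3 transcripts.

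The 51 cells just inside the rule, with 3 transcripts of Car3 and Pck1, had a median of 14 transcripts, and Cd36 was detected in 74.5% of them and Hp in 52.9%. The 44 cells just outside it, with 2, had a median of 13.5, and Cd36 was detected in 61.4% and Hp in 63.6%. Among the 1760 cells with neither Car3 nor Pck1, Cd36 was detected in 4.55% and Hp in 0.739%. The class of other non-neuronal cells therefore includes cells that carried Cd36 and Hp.

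The comparison of fat-like cells with other non-neuronal cells asked which further genes these cells carried. Fat-like cells were higher in genes of fatty acid uptake, lipid handling, mitochondria and secreted proteins, and lower in genes of glia, fibroblasts and neurons. Levels are CPM, counts summed per section and scaled to a total of 1000000 over the 464 genes that the rule did not use. Tests were quasi-likelihood tests in edgeR that blocked on the section, with p-values adjusted after Benjamini and Hochberg. Of 117 genes with enough counts 93 were called (79.5%), of which 39 were higher (33.3% of those tested) and 54 lower (46.2%) in fat-like cells at an adjusted p under 0.05. Since so many genes differed, the median log2 fold change of the 117 genes was -0.64 with the scaling used and -0.98 with library size alone, and each change is read against it. A gene could pass the count filter through either class alone, so counts over the tested members of a list describe those members only. All 93 calls kept their direction and were called under library size alone.

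Both fat cell markers that had not chosen the cells were high. Cd36, the fatty acid translocase, stood at 138289, 119355 and 129981 CPM in fat-like cells of AA_NERVE1 to AA_NERVE3 and at 7819, 6694 and 6578 CPM in other non-neuronal cells. The groups did not overlap, and Cd36 was higher by 4.56 ± 0.07 on the log2 scale (SE, edgeR adjusted p = 1.1e-150). Pparg, the receptor that drives fat cell differentiation, stood at 24597, 33138 and 28334 CPM against 1475, 919 and 1012 CPM. Its lowest section in fat-like cells was above every section of the other cells, with a log2 fold change of 5.02 ± 0.25 (SE, edgeR adjusted p = 2.92e-51). Of all Cd36 transcripts in the sections 80.4% lay in fat-like cells, and of all Pparg transcripts 75.6%. After thinning to 10 transcripts, Cd36 was detected in 54.8% ± 3.73 of fat-like cells and 5.34% ± 0.81 of other non-neuronal cells (SD, n = 3), against 80.3% and 6.54% before thinning. In cells over the neuron limit, taken as the background, thinned Cd36 was detected in 0.39% ± 0.05 and Pparg in 0.36% ± 0.50 of cells. These p-values rest on a spread that edgeR shares across genes, estimated from 3 sections.

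**Figure D2:**
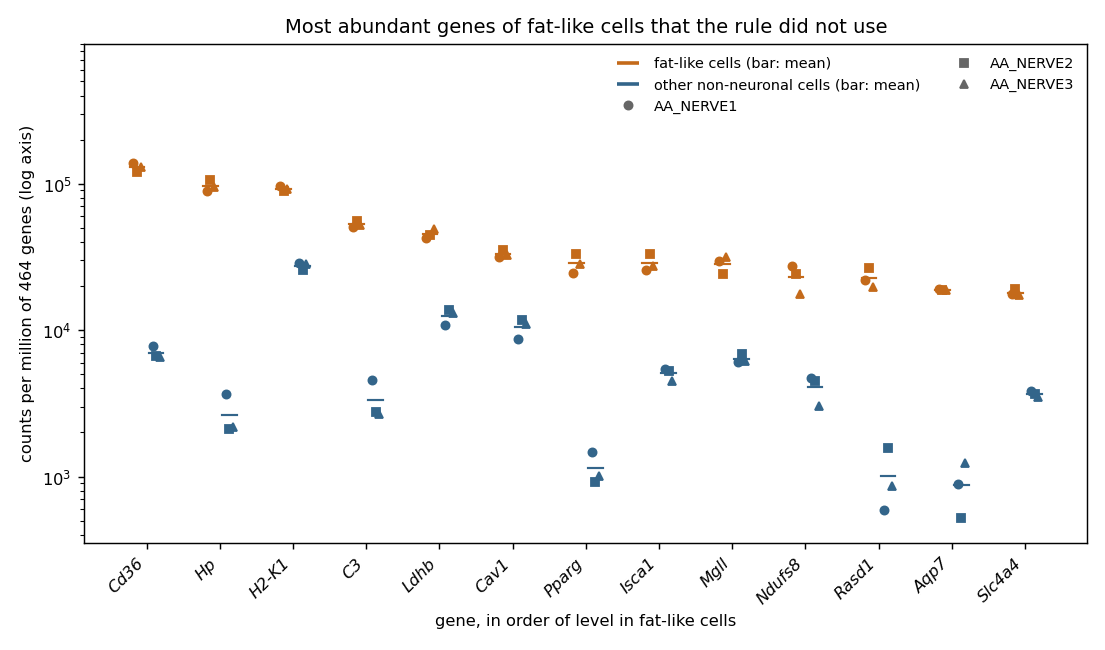
Level in CPM of 464 genes (log axis) of the 13 most abundant genes that the rule did not use, in order of level, in fat-like cells (orange) and other non-neuronal cells (blue). Symbols are the 3 sections and bars are means, and for every gene shown the fat-like sections lie above those of the other cells.

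Of the 11 genes of the lipid uptake and storage list, 7 had enough counts for a test, which a gene could reach through fat-like cells alone. All 7 were higher, against 33.3% of all genes tested, with a median log2 fold change of 4.56. Aqp7, the channel through which fat cells release glycerol, stood at 19131, 18768 and 18771 CPM against 885, 525 and 1229 CPM. Its sections lay close together in fat-like cells and did not overlap the others (log2 fold change 4.67 ± 0.32 SE, edgeR adjusted p = 1.16e-33). Slc27a2, a fatty acid transporter and acyl-CoA synthetase, was higher by 4.76 ± 0.51 (SE), and Mgll, which splits monoacylglycerol in the last step of triglyceride breakdown, by 2.52 ± 0.17 (SE). Gpihbp1, which holds lipoprotein lipase on capillary endothelium, was higher by 3.54 ± 0.46 (SE), and Mettl7a2 by 3.32 ± 0.30 (SE). Apoc4 and Them5 of the same list had no transcript in fat-like cells.

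Proteins that fat secretes were split. Of 5 tested members 3 were higher and 1 lower, with a median log2 fold change of 3.14. Hp, haptoglobin, which binds free haemoglobin, stood at 89095, 106158 and 94741 CPM in fat-like cells against 3688, 2100 and 2169 CPM. It had the highest fold of all genes tested (log2 fold change 5.59 ± 0.10 SE, edgeR adjusted p = 2.35e-136), and 89.3% of all Hp transcripts lay in fat-like cells. C3, the central complement component, was higher by 4.39 ± 0.13 (SE), and Retn, the fat hormone resistin, by 3.14 ± 0.65 (SE) on 26 transcripts. Ptn, the growth factor pleiotrophin, was lower, with a log2 fold change of -3.23 ± 0.25 (SE). Retnla did not pass the test, at 7106, 4985 and 2656 CPM against 1770, 6694 and 4193 CPM, and its groups overlapped.

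Of the 8 tested genes of brown fat and mitochondria 6 were higher and 1 was lower, with a median log2 fold change of 2.47. Cox8b, a cytochrome oxidase subunit of brown fat and muscle, stood at 15851, 17595 and 14875 CPM against 295, 263 and 651 CPM (log2 fold change 5.44 ± 0.39 SE, edgeR adjusted p = 2.28e-31). It was detected in 179 of the 864 fat-like cells. Isca1, an iron-sulphur cluster protein, was higher by 2.86 ± 0.19 (SE), Ndufs8, a subunit of respiratory complex I, by 2.86 ± 0.22 (SE) and Ppargc1a, the coactivator of mitochondrial biogenesis, by 2.08 ± 0.32 (SE). Fech, the last enzyme of haem synthesis, was higher by 1.52 ± 0.27 (SE, log2). Slc25a37 did not pass the test (log2 fold change -0.16 ± 0.43 SE).

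As a description, Cd36 stood at a mean of 143750 CPM in the 179 fat-like cells with a Cox8b transcript and 127867 CPM in the 685 without, and Ppargc1a at 11496 and 10888 CPM. Retn had 0 transcripts in the former and 26 in the latter. The cells with Cox8b had a median of 25 transcripts against 21, and this split was chosen after the values had been seen and was not tested.

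Other abundant genes of fat-like cells were higher too. H2-K1, an MHC class I heavy chain, stood at 96748, 88856 and 91730 CPM against 28622, 25725 and 28483 CPM and was higher by 2.08 ± 0.06 (SE, log2). It was the only called member of the antigen presentation list, of which 2 of 5 genes were tested, and the class II gene H2-Aa had a log2 fold change of -0.79 ± 0.48 (SE) that did not pass. Ldhb, a lactate dehydrogenase subunit, was higher by 2.22 ± 0.11 (SE), and Slc4a4, a sodium bicarbonate cotransporter, by 2.65 ± 0.25 (SE). Rasd1, a Ras-like protein induced by glucocorticoids, was higher by 4.82 ± 0.29 (SE), and Timp4, an inhibitor of matrix metalloproteinases, by 3.47 ± 0.56 (SE). Kng2, a kininogen gene, was higher by 3.45 ± 0.58 (SE) on 37 transcripts and is the only tested gene of the hepatocyte list, whose summed level was 3519 to 3896 CPM in fat-like cells, with 5 of its 12 genes at 0. None of the 9 interleukin and receptor genes or the 17 chemokine and receptor genes had enough counts for a test. Of the lipid mediator genes 2 of 7 were tested, and Lpar1, a receptor for lysophosphatidic acid, was lower, with a log2 fold change of -2.32 ± 0.45 (SE). Calcrl, the receptor subunit for CGRP, was called lower on 15 transcripts, with a log2 fold change of -1.10 ± 0.49 (SE). This fold lay close to the median of -0.64 over the 117 genes tested, so that Calcrl was not set apart from them.

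**Figure D3:**
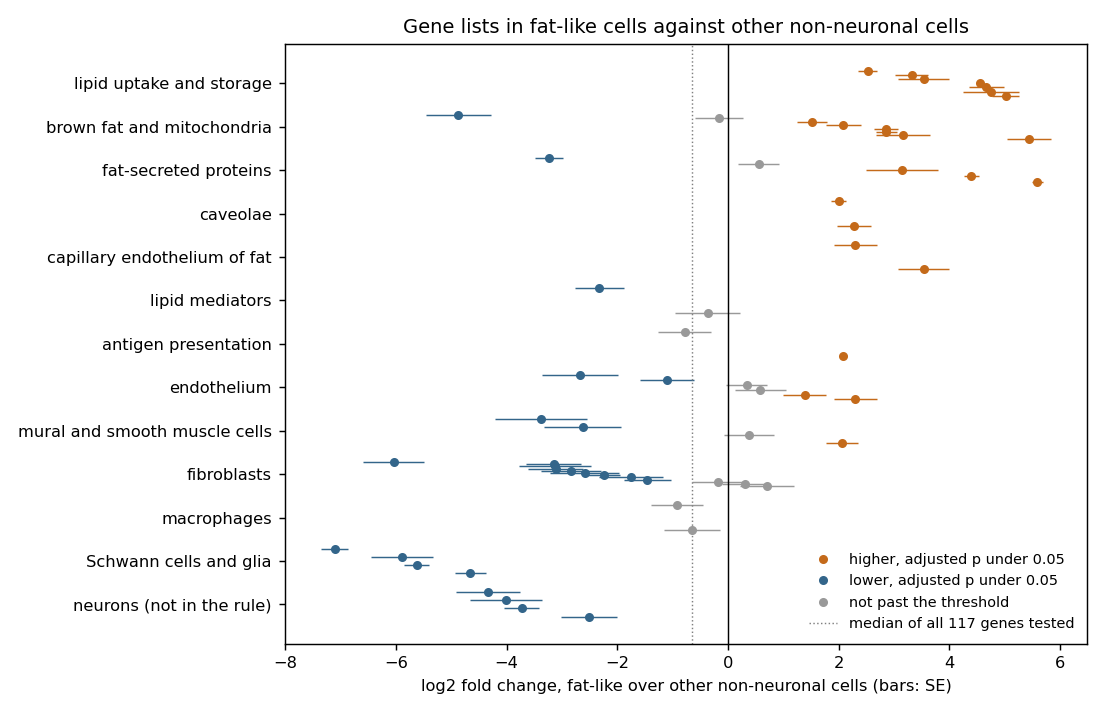
Log2 fold change of fat-like over other non-neuronal cells for the tested genes of each list with more than 1 tested gene, with bars for the SE and colours for the call. Genes with no transcript in fat-like cells are left out, and the dotted line is the median of all 117 genes (-0.64). The genes of lipid uptake and storage lie far above it and the glial genes far below.

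The caveola genes Cav1 and Cavin2, abundant in fat cells and endothelium alike, were both higher, by 2.00 ± 0.14 and 2.28 ± 0.31 (SE, log2). Their sum was not particular to fat-like cells, at 43563 to 48094 CPM there and 23121 to 53985 CPM in vessel cells. Vessel cells were other non-neuronal cells with 3 or more endothelium transcripts. Of the 6 tested endothelium markers 2 were higher and 2 lower, shares no larger than the 33.3% higher and 46.2% lower among all genes tested, so that the list is not set apart by these counts. Kdr, the VEGF receptor 2, was higher by 2.30 ± 0.39 (SE) and Tie1, an endothelial receptor kinase, by 1.39 ± 0.39 (SE), while Vwf, von Willebrand factor, had 4 transcripts in fat-like cells and was lower, with a log2 fold change of -2.68 ± 0.68 (SE). Rgs5, a pericyte gene, was the 1 higher gene of 4 tested markers of mural and smooth muscle cells, at 13118, 7038 and 17886 CPM against 4869, 2494 and 4265 CPM. Tagln and Myl9 of the same list were lower, with log2 fold changes of -3.38 ± 0.83 and -2.63 ± 0.69 (SE), on 2 and 4 transcripts in fat-like cells. Mylk did not pass, and the median of the 4 was -1.12. Among all genes tested 33.3% were higher and 46.2% lower, so that 1 higher gene of 4 does not set this list apart. The summed endothelium list stood at 20224 to 25220 CPM in fat-like cells, 21835 to 24413 CPM in other non-neuronal cells and 191517 to 250704 CPM in the 73 vessel cells, and none of its 11 genes was at 0 in fat-like cells. Of the 864 fat-like cells 646 had no transcript of the list, and with these alone, a choice made after seeing the data, Cd36 was higher by 4.11 ± 0.21 (SE), Cav1 by 1.58 ± 0.19 (SE), Gpihbp1 by 2.88 ± 0.40 (SE) and Rgs5 by 1.43 ± 0.27 (SE). The other non-neuronal cells were not filtered in this way and kept the vessel cells. Whether these folds depend on endothelium transcripts was therefore not tested. The summed mural list stood at 9677 to 21250 CPM in fat-like cells and 9319 to 16193 CPM in other non-neuronal cells, with Pln at 0 in fat-like cells, and its part in the Rgs5 result was not tested. When Pck1 alone chose the cells, Rgs5 (log2 fold change 0.42, edgeR adjusted p = 0.178) and Fech (0.42, adjusted p = 0.151) did not pass. The cells compared against then included fat-like cells with fewer than 3 Pck1 transcripts, which can narrow a fold. Kdr and Tie1 belong to the endothelium list and are at 0 in the 646 cells by their choice, so that their fold there says nothing of the gene. Tie1 did not pass under 5 alternatives, among them DESeq2 (log2 fold change 0.93, adjusted p = 0.0908) and the fit without the section AA_NERVE3 (1.05, edgeR adjusted p = 0.101).

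Genes of the surrounding nerve tissue were lower in fat-like cells. All 5 tested markers of Schwann cells and glia were lower. Prx, periaxin of myelinating Schwann cells, stood at 0, 0 and 708 CPM against 57097, 58013 and 57977 CPM, and Pmp22, a myelin protein, was lower, with a log2 fold change of -5.63 ± 0.22 (SE). Sox2, a glial transcription factor, had no transcript in fat-like cells, which puts it at least 26.6-fold lower, taking 3 counts over the class as the floor. By the same floor Comp, a matrix protein, was at least 35.3-fold lower, Sostdc1 at least 19.2-fold and Ccn3 at least 14.4-fold. Of 13 tested fibroblast markers 10 were lower and none was higher, with a median log2 fold change of -2.59, and Dpt, Ccdc80 and Htra3 did not pass. All 4 tested neuron markers that the rule did not use were lower, among them Stmn1, a tubulin-binding protein, at -3.73 ± 0.31 (SE, log2). The 2 tested macrophage markers, F13a1 and Ctss, did not pass.

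**Figure D4:**
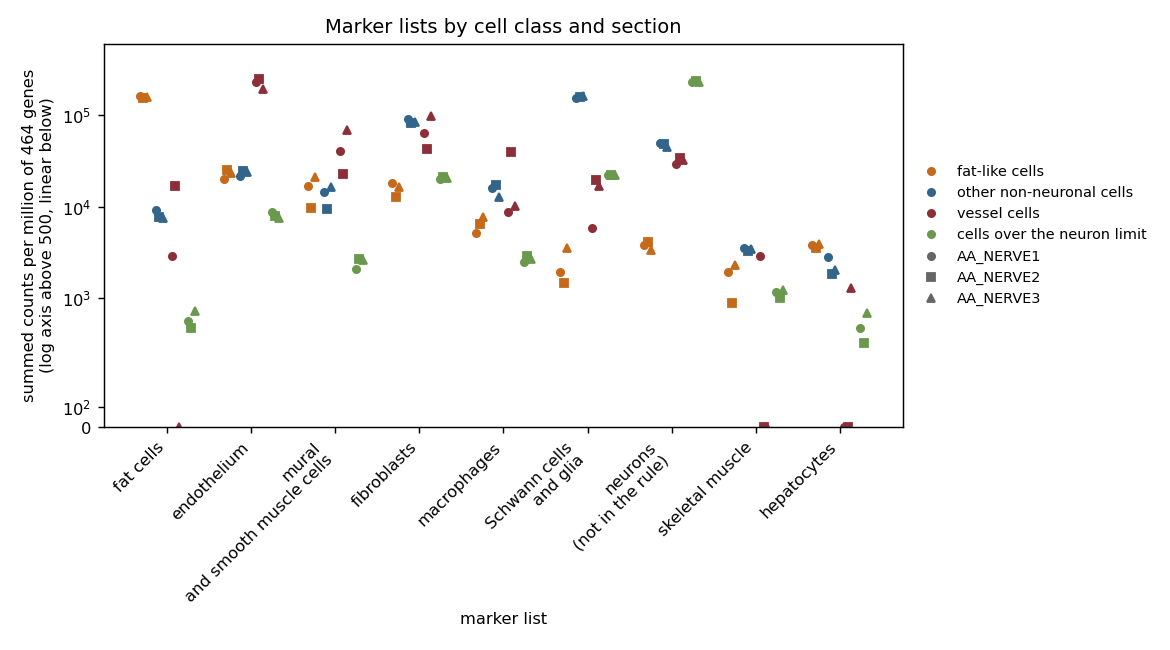
Summed level of each marker list in CPM of 464 genes (log axis above 500, linear below) by cell class, with symbols for the 3 sections. The fat cell list here holds Cd36 and Pparg, and fat-like cells carry it at 152493 to 162886 CPM with little of the glia list (1466 to 3542 CPM).

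Choosing the members by 1 of the genes left the other free. Both are genes of the rule, picked as a pair, so these values are a description and not a test. The shares of cells were not matched for depth. Among cells within the same limits of depth and neuronal genes, Pck1 was detected in 86.4% of the 766 cells with 3 or more Car3 transcripts and in 6.80% of the 1957 with fewer. When Car3 alone chose the cells, Pck1 was higher by 4.14 on the log2 scale. Car3 was detected in 99.0% of the 400 cells with 3 or more Pck1 transcripts and in 23.3% of the 2323 with fewer. When Pck1 alone chose the cells, Car3 was higher by 2.14 on the log2 scale. In each choice the cells with fewer transcripts of the choosing gene included fat-like cells, which can narrow these folds.

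Cells rich in Car3, Pck1 or both, meaning 3 or more transcripts of the gene, were then compared among themselves. There were 409 cells rich in Car3 only, 43 rich in Pck1 only, 357 rich in both and 55 rich in neither. The share rich in both was 41.0% ± 3.88 (SD, n = 3), and it followed depth: it was 55.9% among cells with 20 or more transcripts and 3.89% after thinning to 10. The cells rich in both had a median of 28 transcripts, and those rich in 1 gene had a median of 19. Across fat-like cells, the Car3 share of the summed Car3 and Pck1 transcripts had a median of 72.7%, from 33.3% at the 5th percentile to 100% at the 95th.

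Between Car3-rich and Pck1-rich cells, 0 of 19 genes passed the adjusted threshold in edgeR (0% called), 5 had an unadjusted p under 0.05, and DESeq2 and limma called 0 as well. Other settings called some of these genes. Without a filter on low counts, C3 (log2 fold change 1.36), H2-K1 (1.10), Hp (1.01) and Ndufs8 (1.76) were higher in Car3-rich cells, at edgeR adjusted p-values of 0.0161 to 0.0359. The filtered fit gave 0.74, 0.47, 0.41 and 1.11 for the same genes. Cd36 and Pparg, not called, also moved upward without the filter, so the rise was not particular to the genes called. Where rich meant 5 transcripts, C3 (1.10) and Cav1 (1.53) were higher and Ppargc1a (-1.56) and Slc4a4 (-1.43) lower, each at an edgeR adjusted p of 0.0350. Among cells with 10 or more counts over other genes, a setting chosen after seeing the data, Aqp1 was lower (-1.94, edgeR adjusted p = 0.0349). The lowest p-values belonged to the water and glycerol channels. Aqp1, a water channel, stood at 7726, 5435 and 5416 CPM in Car3-rich cells against 15544, 14493 and 20101 CPM in Pck1-rich cells, on 33 and 9 transcripts. These groups did not overlap (log2 fold change -1.40 ± 0.40 SE, edgeR adjusted p = 0.153). Aqp7 had a log2 fold change of -0.96 ± 0.29 (SE), C3 of 0.74 ± 0.25 (SE), Ndufs8 of 1.11 ± 0.39 (SE) and H2-K1 of 0.47 ± 0.17 (SE), all at the same adjusted p of 0.153. For Cd36 the difference was -0.13 on the log2 scale with a 95% interval of -0.54 to 0.28, and for Pparg -0.06 with an interval of -1.18 to 1.05. The Pck1-rich class held 757 transcripts, and on simulated counts of this comparison 0 of 3 changes of 1 and 4 of 4 changes of 2 on the log2 scale were recovered.

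Between cells rich in both genes and cells rich in 1, 0 of 33 genes passed in edgeR (0% called), 4 had an unadjusted p under 0.05, and DESeq2 and limma called 0. Fmo5, a flavin monooxygenase, stood at 7079, 8982 and 6793 CPM against 3491, 4969 and 3587 CPM, without overlap (log2 fold change 0.86 ± 0.38 SE, edgeR adjusted p = 0.355). Mgll had a log2 fold change of 0.36 ± 0.17 (SE), Ldhb of 0.28 ± 0.13 (SE) and Rgs5 of -0.62 ± 0.30 (SE), at the same adjusted p. Without AA_NERVE3, Cav1 was lower in cells rich in both by -0.68 ± 0.18 (SE, log2, edgeR adjusted p = 0.0165).

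**Figure D5:**
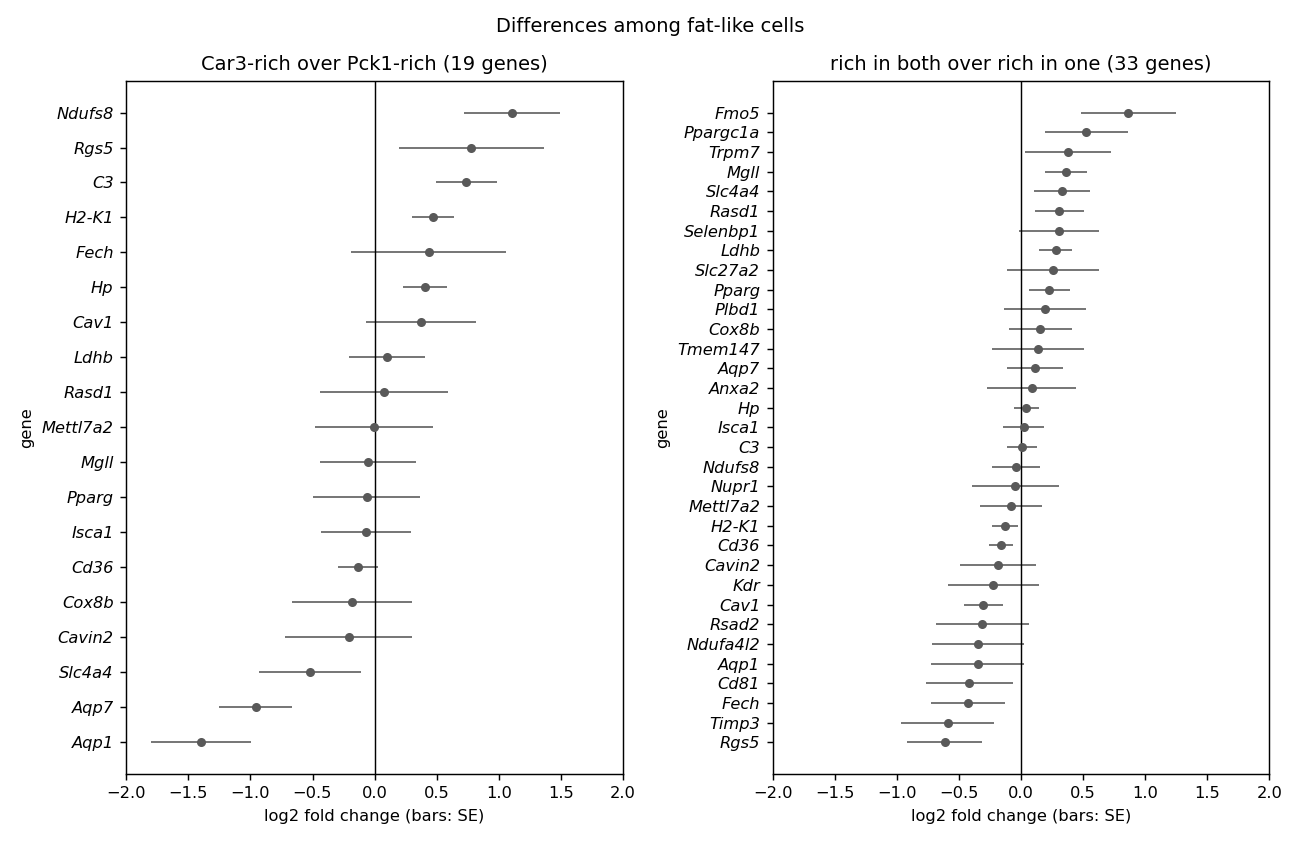
Log2 fold change with SE for each tested gene between Car3-rich and Pck1-rich fat-like cells (left, 19 genes) and between cells rich in both genes and cells rich in 1 (right, 33 genes). No gene passed the adjusted threshold in either panel, and the widest differences on the left are Aqp1 at -1.40 and Ndufs8 at 1.11.

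A further 17 cells had 3 or more Cd36 transcripts but at most 2 of Car3 and Pck1, and held 295 transcripts. Against these, 0 of 33 genes passed in edgeR (0% called), 0 had an unadjusted p under 0.05, DESeq2 called 0, and limma called 2, Fech and Tmem147, neither of which had a transcript in the 17 cells. Pparg had 2 transcripts in the 17 cells, and its log2 fold change of 2.35 had a 95% interval of -0.50 to 5.20. For Hp, the difference was 1.30 with an interval of -0.13 to 2.72, and for Aqp7 -0.15 with an interval of -2.32 to 2.01. Cav1, Gpihbp1 and Kdr, higher against other non-neuronal cells, had log2 fold changes of -0.18, -0.91 and -0.71 here and were not called. Among cells with 20 or more transcripts C3, H2-K1 and Hp were higher in fat-like cells, by 3.84, 1.37 and 3.03 on the log2 scale (edgeR adjusted p = 0.0125, 0.0125 and 7.6e-07). The 17 cells had a median of 17 transcripts, so that most of them fell outside this setting. Over all 17 cells Hp stood at 115942, 13699 and 37879 CPM in the 3 sections, against 89095, 106158 and 94741 CPM in fat-like cells.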

How the data were processed

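Per the labels and the study's methods, fixation of the ganglia took 2 hours in paraformaldehyde (4%), and paraffin slices were run on a Xenium slide, with Xenium Ranger and Seurat named for the analysis. The authors deposited raw counts of decoded transcripts per gene and segmented cell, with a table of totals per cell. The genome build and transcript quality filter are not given in the sources used here. The lung sample was not used here. Sections were mapped by the prefix of the cell names, with 0 columns left unmapped.

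The members and gene lists were chosen with earlier results of these data known. Counts were summed per section and class without the 6 genes of the rule. Genes with enough counts (filterByExpr) were tested in edgeR 4.0.16 (quasi-likelihood, TMM scaling, section as a block) under R 4.3.3. The block was used because every class comes from the same 3 sections. DESeq2 1.42.0 and limma 3.58.1 on log2(CPM + 1) were alternatives. No doublet caller was run. Of the fat-like cells 13 held 3 or more endothelium transcripts and 7 held 3 or more fibroblast transcripts. Control probe and codeword events were 0.0434% of transcripts in fat-like cells.

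Named genes were the 10 higher and 10 lower with the largest folds among those called and moving the same way in all 3 sections, the fat markers, up to 4 abundant members per list, and the 15 most abundant genes. Genes named in the comparisons among fat-like cells were chosen after their values were seen. On simulated data for the comparison with other non-neuronal cells (117 genes), 78.1% of changes of 1 and 100% of changes of 2 on the log2 scale were recovered. For the Cd36 cells (32 genes) 22.2% of changes of 2 were recovered. Values of some single genes of the lists are not reported here.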

Additional observations from a re-analysis of the deposited data

How the results depend on the processing

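For 35 genes followed against other non-neuronal cells, there were 547 values under the alternatives, of which 534 kept direction and call, 13 kept direction but lost the call, and 0 reversed. Without the replicate block 97 genes were called against other non-neuronal cells, among them all 93, and 0 in each of the other comparisons. Among cells with 20 or more counts 59 genes were called and 32 lower, with 68 genes tested, and without a filter on low counts 90 were lower, with 455 tested. Against the Cd36 cells, 3 genes were called, all higher, among cells with 20 or more counts, a setting without most of the 17. With limma 2 were called, both higher. Between Car3-rich and Pck1-rich cells, 4 genes were called, all higher, without a filter, 4 (2 higher, 2 lower) where rich meant 5 transcripts, and 1, Aqp1, lower, among cells with 10 or more counts over other genes, an alternative chosen after seeing the data. The cause was not tested. There Pparg, not called, turned to 0.019 on the log2 scale in the last setting, 0.38 with 20 or more counts, 0.052 with limma and 0.51 without a filter, and Cd36, not called, to 0.50 without a filter, 0.26 where rich meant 2 and 0.41 where it meant 5. Leaving out 1 section each, Pparg ranged from -0.34 to 0.46 and Cd36 from -0.22 to 0.059. Between cells rich in both genes and in 1, Cd36 turned to 0.034 where rich meant 5, and leaving out 1 section gave 0 to 1 calls, 0 to 1 of them lower. The share of fat-like cells was 15.2% after thinning to 10 counts and 16.7% with 5 or more Car3 and Pck1 transcripts. The share rich in both was 3.89%, 48.2% and, with 20 or more counts, 55.9%. Depth per cell limits which genes could be tested.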
